A study of Mus musculus with 12 samples.

Results

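Heat shock proteins, the transcription factors that switch on their genes and the co-chaperones that work with them were followed as a list of 37 mouse genes, chosen by symbol from the 54232 genes counted in each library. A total of 36 passed the filter on low counts and were tested, and Hspa12b, with 11 counts over all 12 libraries, was not. The list was drawn up with the counts of all groups known, so the number of its genes that changed describes these libraries and is not independent evidence about the family.

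The cells were MMTV-NIC mouse breast cancer cells. In MMTV-NIC mice the MMTV promoter, active chiefly in mammary epithelium, drives an activated Neu (ErbB2) oncogene together with Cre recombinase, and all 4 groups carry that oncogene. The groups were AXL KO cells in 1% oxygen (hypoxia), AXL KO cells in 21% oxygen (normoxia), AXL WT cells in hypoxia and AXL WT cells in normoxia, with 3 RNA-seq libraries each. AXL is a TAM-family receptor tyrosine kinase, and the study's stated comparison was of its loss in hypoxia. The labels give no time in hypoxia, no way in which Axl was disrupted, no number of KO lines or clones and no origin of the replicates, so p-values measure the spread between these libraries, which may be technical.

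Heat shock proteins are molecular chaperones: they bind unfolded stretches of other proteins and help them fold, hold them in solution, or hand them to degradation. HSP70 proteins do this in cycles of ATP hydrolysis that J-domain proteins start and that nucleotide exchange factors (the HSP110 proteins and BAG3) end, HSP90 finishes the folding of many kinases and receptors with its own co-chaperones, and small heat shock proteins hold unfolded proteins without using ATP. When unfolded proteins accumulate, the transcription factor HSF1 binds heat shock elements, inverted repeats of GAA and TTC, and raises transcription of many of these genes, and tumour cells often carry high levels of them.

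Counts in genes ran from 45297267 to 58775422 per library, and levels are given as CPM, counts scaled to library size with TMM factors. Axl had 2.09, 2.35 and 1.72 CPM in AXL KO hypoxia and 2.93, 3.26 and 3.47 CPM in AXL KO normoxia, against 509.6, 455 and 592 CPM in AXL WT hypoxia and 911, 892 and 1000.2 CPM in AXL WT normoxia, as the titles say (log2 fold change -7.98 ± 0.17 in hypoxia and -8.18 ± 0.17 in normoxia). Of 6 mammary epithelial and tumour markers 5 (Epcam, Krt8, Krt18, Cdh1 and Erbb2) were at 1 CPM or more in every group, and Krt19 was under 1 CPM in all of them. Their summed level was 2278 to 2376 CPM in AXL KO hypoxia and 2159 to 2446 CPM in AXL KO normoxia, against 953 to 4487 CPM in AXL WT hypoxia and 3112 to 3202 CPM in AXL WT normoxia. Cdh1 and Epcam were lower in KO cells in hypoxia (-2.76 ± 0.32 and -2.78 ± 0.33) and in normoxia (-0.96 ± 0.30 and -1.64 ± 0.32), all called. The other 3 tested markers were not called between genotypes. In AXL WT hypoxia Cdh1 and Epcam rose (1.49 ± 0.30 and 1.54 ± 0.31), while Krt8 fell (-0.68 ± 0.26, edgeR adjusted p = 0.0382). The median log2 fold change over the 5 tested markers was -0.34 there. The AXL WT hypoxia libraries stand apart from each other: their biological coefficient of variation was 0.4015, against 0.05654 to 0.08953 in the other groups. Within that group 26 of the 36 members at 1 CPM or more were highest in replicate 2, where 35.4% of all genes at that level were, and 7 were highest in replicate 1. Fits with replicates 2 and 3 left out are therefore given beside results of that group where they end or add a call, turn a direction or move a called fold by over 1.5 times, and for the larger changes; there replicate 1 stands alone and is assumed to vary like the other groups. Csf1r, a macrophage gene, was lower in AXL KO than in AXL WT hypoxia (log2 fold change -9.09 ± 1.19, edgeR adjusted p = 4.32e-05) and higher in AXL WT hypoxia than in AXL WT normoxia (9.64 ± 1.21, adjusted p = 3.79e-05), and under 1 CPM in the groups other than AXL WT hypoxia, while the leukocyte genes Ptprc, Cd3e, Adgre1 and Itgam were under 1 CPM in every group. Summed levels of 7 fibroblast markers were 58.7 to 65.4 CPM in AXL KO hypoxia and 186 to 201 CPM in AXL KO normoxia, against 72.1 to 96.1 CPM in AXL WT hypoxia and 66.1 to 72.6 CPM in AXL WT normoxia, and those of 5 endothelial and 4 adipocyte markers were at most 17.8 and 41.8 CPM in any library. The part of these markers in the results was not tested. In bulk RNA, fewer cells with a transcript and less of it per cell cannot be told apart.

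Heat shock elements in promoters are the sites through which many of these genes are known to be switched on. RefSeq promoter windows, 250 bases before to 50 after a start site on GRCm38.p6, were matched for 30 of the 37 members (43 windows). The stretches below were chosen for their motifs: they are from members that hold a heat shock motif and were called higher in hypoxia in both genotypes, or that carry a 3-unit element, with Hspe1 standing also for Hspd1. Hspa4l, which rose more than most, held none of the motifs searched and is not among them. They cover 150 bases upstream of the start site for the first 5 genes and a short stretch around the element for Hsph1 and Chordc1. Capitals mark GAANNTTC or TTCNNGAA, where N is any base, each motif reading the same on both strands. Hspa1a (chr17:34972157-34972306) and Hspa1b (chr17:34959239-34959388) lie on the minus strand, Hspb1 (chr5:135887769-135887918), Hspe1 (chr1:55087998-55088147), Dnajb6 (chr5:29735748-29735897) and Chordc1 (chr9:18292258-18292287) on the plus strand and Hsph1 (chr5:149636287-149636308) on the minus strand.
Hspa1a: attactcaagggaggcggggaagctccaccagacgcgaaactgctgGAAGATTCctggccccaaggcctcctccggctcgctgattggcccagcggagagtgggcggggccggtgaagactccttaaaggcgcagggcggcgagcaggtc
Hspa1b: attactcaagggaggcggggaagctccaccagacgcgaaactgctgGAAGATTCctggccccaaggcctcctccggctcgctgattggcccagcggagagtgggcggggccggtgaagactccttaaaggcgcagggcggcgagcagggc
Hspb1: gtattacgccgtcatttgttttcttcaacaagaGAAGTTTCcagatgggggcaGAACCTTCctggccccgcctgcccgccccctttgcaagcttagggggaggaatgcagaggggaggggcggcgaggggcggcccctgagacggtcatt
Hspe1: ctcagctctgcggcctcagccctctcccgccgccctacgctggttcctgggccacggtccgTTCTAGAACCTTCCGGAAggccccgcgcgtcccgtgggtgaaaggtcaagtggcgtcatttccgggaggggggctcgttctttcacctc
Dnajb6: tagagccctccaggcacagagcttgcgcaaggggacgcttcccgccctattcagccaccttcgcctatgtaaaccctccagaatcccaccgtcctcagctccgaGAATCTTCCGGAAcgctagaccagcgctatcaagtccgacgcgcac
Hsph1: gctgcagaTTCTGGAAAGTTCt
Chordc1: aaccgGAACGTTCGGGAAAATTCCTGAAgc
The Hspa1a and Hspa1b windows were identical at 296 of 300 bases, and both hold a single 2-unit motif that begins 104 bases before the start site. Hspb1 held a pair of separate 2-unit motifs, beginning 117 and 97 bases before its start site. The element in the Hspe1 stretch lies upstream of Hspe1 and inside annotated Hspd1, whose 5′ end overlaps that of Hspe1 by 112 bases on the other strand, and the window of an Hspd1 start site on the other strand holds the same bases, chr1:55088059-55088076. A GAANNTTC or TTCNNGAA was present in 15 of the 30 members, against 17.0% of 27025 genes with a window. The 3-unit forms, which extend either 2-unit motif by NN and 1 more GAA or TTC unit in turn, were present in 5 members (Chordc1, Dnajb6, Hspd1, Hspe1 and Hsph1; 16.7%), against 0.662% of all genes. ACGTG, the core of the hypoxia response element, searched on both strands, was present in 11 members (36.7%), against 21.8% of all genes. A match describes these letters and is not evidence that a factor binds there. Hsf1, Cryab, Hsp90aa1, Hspa8, Hspa13, Hsp90ab1 and Hspa9 have no sequence shown or searched here.

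**Figure D1:**
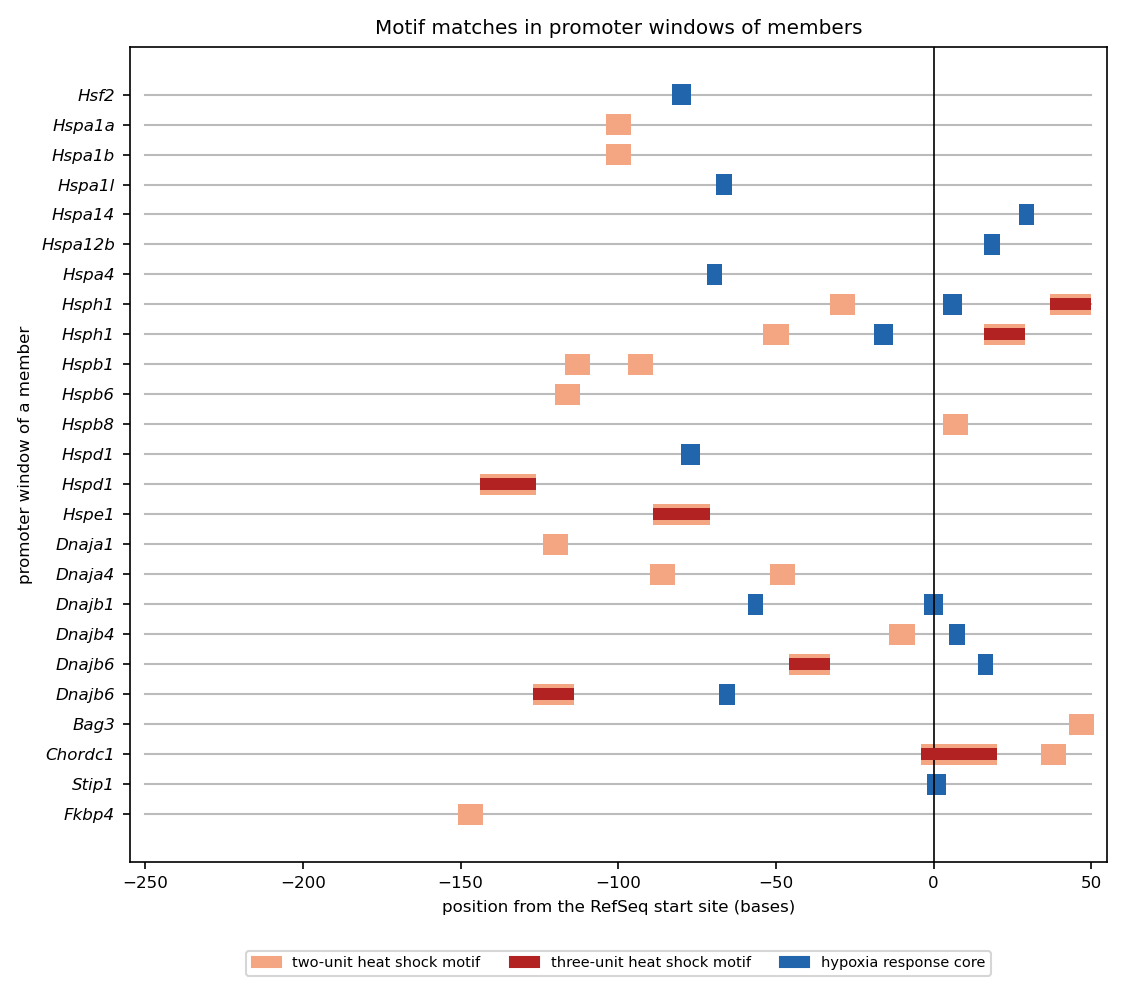
Positions of motif matches in promoter windows of members, in bases from the RefSeq start site, for the 25 windows with a match. Each grey line is a window, the bars are 2-unit heat shock motifs (light orange), 3-unit motifs (red) and hypoxia response cores (blue), and the 3-unit motifs lie in windows of Hsph1, Hspd1, Hspe1, Dnajb6 and Chordc1.

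Summed over the 37 genes, the list held more of the RNA in hypoxia than in normoxia and less in AXL KO than in AXL WT cells. In AXL WT cells the separation by oxygen depends on Hspa4l. The 37 genes took 0.895% to 0.925% of counts in AXL KO hypoxia and 0.614% to 0.666% in AXL KO normoxia, against 1.35%, 2.16% and 1.90% in AXL WT hypoxia and 1.02% to 1.06% in AXL WT normoxia. No group overlapped another in this share, which uses raw counts without TMM factors. On the TMM scale the order of 2 groups was reversed. The summed level was 10258 to 10756 CPM in AXL KO hypoxia, above the 8408 to 9000 CPM of AXL WT normoxia. Hspa4l alone made up 14.3% to 15.7% of the member counts in AXL KO hypoxia and 2.98% to 3.35% in AXL KO normoxia. In AXL WT cells it made up 29.3% to 33.6% in hypoxia and 5.33% to 6.05% in normoxia. Without its counts the raw share of AXL WT hypoxia replicate 1 lay below that of every AXL WT normoxia library. Per kilobase of annotated transcript, a scale on which genes can be set side by side, Cryab had the highest mean level in both hypoxia groups (1108 CPM per kb in AXL KO and 1027 CPM per kb in AXL WT), and Hsp90ab1 the highest in both normoxia groups (750.3 CPM per kb in AXL KO and 895 CPM per kb in AXL WT).

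**Figure D2:**
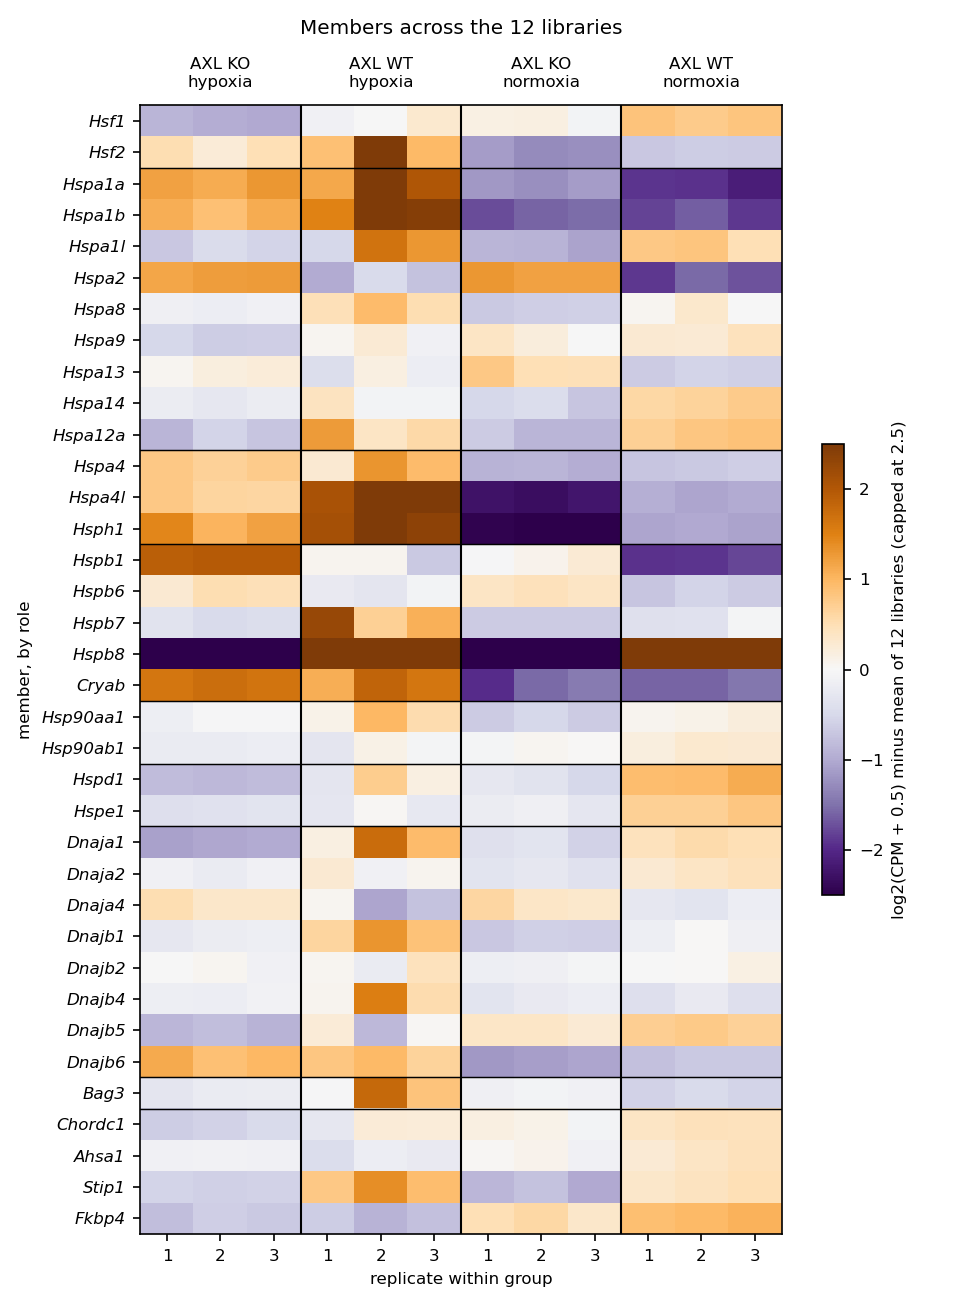
Log2(CPM + 0.5) of the 36 tested members in each of the 12 libraries, minus the member's mean over the libraries, with colours capped at 2.5. Columns are libraries by group and replicate, rows are members by role, and brown to orange marks libraries above the mean, deepest in AXL WT hypoxia replicate 2 for Hsf2, Dnaja1, Dnajb4 and Bag3.

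Tests used edgeR's quasi-likelihood model on all 12 libraries, and a gene is called where its Benjamini-Hochberg adjusted p over all 16767 tested genes is under 0.05. Fold changes are log2 values ± SE unless a linear fold is named. Each gene has 1 spread for all groups, so the uneven AXL WT hypoxia libraries can also widen SEs of contrasts without them. A gene not called there need not be unchanged. With only the compared libraries fitted, 12610 of 15866 genes were called between genotypes in normoxia and 11786 of 15134 for hypoxia in AXL KO. With AXL WT hypoxia compared, 7696 of 15216 were called between genotypes and 7600 of 15453 for hypoxia. In AXL KO cells hypoxia raised 14 and lowered 6 of the 36 tested members (55.6% called), where 58.0% of all tested genes were called, 27.3% higher and 30.6% lower, with a median log2 fold change of 0.24 over the members and -0.03 over all genes. That share is close to that of all genes. In AXL WT cells hypoxia raised 20 and lowered 10 members (83.3%), where 59.8% of all genes were called, 29.2% higher and 30.7% lower. The median log2 fold change was 0.51 over the members and -0.02 over all genes. With replicates 2 and 3 of AXL WT hypoxia left out the counts were 18 and 10.

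AXL KO cells had lower levels than AXL WT cells of 21 members in hypoxia and higher levels of 4 (69.4% called), where 63.0% of all genes were called, 33.0% lower and 29.9% higher. In normoxia they had lower levels of 21 members and higher levels of 6 (75.0%), where 59.7% were called, 30.0% lower and 29.7% higher. The median log2 fold change between genotypes was -0.73 in hypoxia and -0.45 in normoxia over the members, against -0.04 and -0.03 over all genes. With replicates 2 and 3 of AXL WT hypoxia left out, 19 members were lower and 8 higher in hypoxia, and 25 were lower and 7 higher in normoxia. Each group stands in more than 1 comparison, so these counts share libraries. Counts from the fit with replicates 2 and 3 left out rest on 1 AXL WT hypoxia library. They cannot be read against the shares of all genes, which come from the fit on all 12 libraries. Under scaling by library size alone the median of all genes was -0.208 and -0.285 between genotypes in hypoxia and normoxia, against -0.04 and -0.03 with TMM, and -0.230 and -0.318 for hypoxia in AXL KO and AXL WT cells, against -0.03 and -0.02. With that scaling the genotype counts were 4 higher and 25 lower in hypoxia and 4 higher and 26 lower in normoxia. The hypoxia counts were 11 higher and 11 lower in AXL KO and 15 higher and 12 lower in AXL WT cells. Of all 16767 genes 4170 were then higher and 6481 lower between genotypes in hypoxia, and 3717 higher and 6667 lower in normoxia. For hypoxia 3516 were higher and 6251 lower in AXL KO, and 3473 higher and 7001 lower in AXL WT cells.

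**Figure D3:**
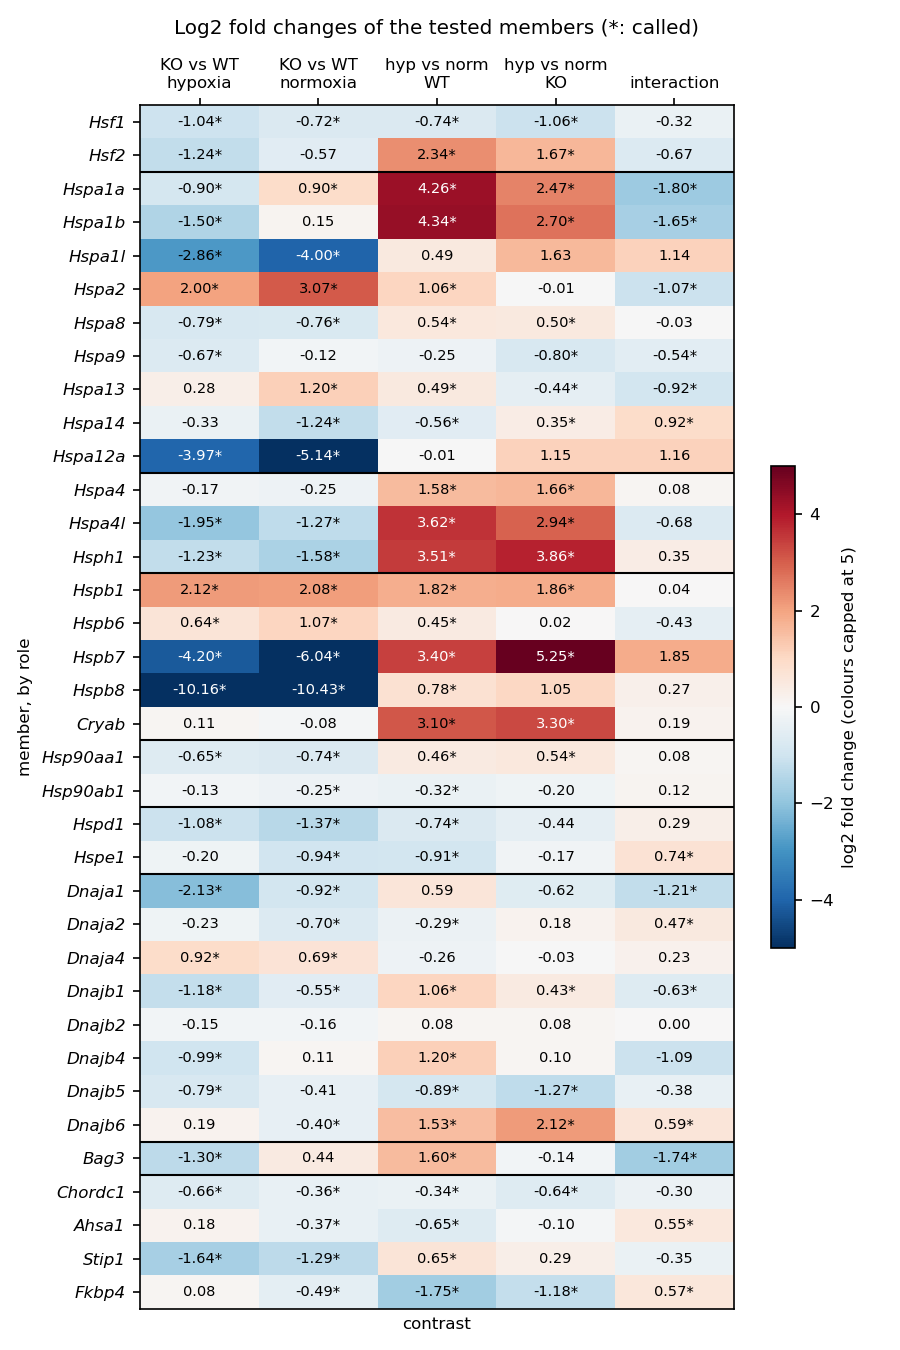
Log2 fold changes of the 36 tested members in the 5 contrasts, printed in each cell, with an asterisk where the gene was called. Rows are ordered by role, colours are capped at 5, and in both hypoxia columns Hspa1a, Hspa1b, Hspa4l, Hsph1 and Cryab are above 2 on the log2 scale.

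The transcription factors moved in opposite directions in hypoxia. Hsf1, the master regulator of the heat shock response (chr15:76477422-76501913), had 20.5, 19.4 and 18.7 CPM in AXL KO hypoxia and 42.5, 43.0 and 36.5 CPM in AXL KO normoxia. It had 35.2, 38.0 and 47.2 CPM in AXL WT hypoxia and 68.8, 64.4 and 67.9 CPM in AXL WT normoxia. Hypoxic libraries lay below the normoxic libraries of their genotype, and KO below WT libraries at each oxygen level, without overlap. Hsf1 fell in hypoxia by 1.06 ± 0.12 (adjusted p = 2.18e-05) in AXL KO and by 0.74 ± 0.12 (adjusted p = 0.000251) in AXL WT cells. Hsf1 was lower in KO cells, at -1.04 ± 0.12 in hypoxia (adjusted p = 1.79e-05) and -0.72 ± 0.12 in normoxia (adjusted p = 0.000253). Hsf2, a second heat shock factor that can pair with HSF1, rose in hypoxia by 1.67 ± 0.34 in AXL KO and 2.34 ± 0.35 in AXL WT cells (adjusted p = 0.00142 and 0.000139). Its 3 AXL WT hypoxia libraries spanned 78.2 to 239 CPM, with replicate 2 far above the others, and without that replicate the WT rise was 1.62 and the KO difference in hypoxia -0.51, against -1.24 with it (-0.47 with replicates 2 and 3 left out). In normoxia the Hsf2 difference between genotypes was -0.57 ± 0.34, and -0.56 with replicates 2 and 3 of AXL WT hypoxia left out. It was not called on all 12 libraries or in 11 of the 12 fits with 1 library left out. The libraries did not overlap, at 17.0 to 18.9 CPM in AXL KO and 25.7 to 26.9 CPM in AXL WT normoxia.

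Among the HSP70 genes the stress-inducible pair had the largest responses to hypoxia. Hspa1b, one of the neighbouring inducible HSP70 genes, had 99.5, 86.8 and 100.3 CPM in AXL KO hypoxia and 13.5, 15.0 and 15.8 CPM in AXL KO normoxia. It had 131, 425 and 254 CPM in AXL WT hypoxia and 13.0, 14.7 and 12.3 CPM in AXL WT normoxia. All hypoxic libraries lay above all normoxic ones, and those of AXL WT hypoxia differed among themselves, replicate 2 being highest. The rise in hypoxia was 2.70 ± 0.32 in AXL KO (adjusted p = 2.76e-05) and 4.34 ± 0.34 in AXL WT cells (adjusted p = 1.12e-06; 3.31 with replicates 2 and 3 left out). In linear terms the group means differed 6.48-fold and 20.3-fold.

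Hspa1a, its near-identical neighbour, had 33.2, 30.9 and 35.4 CPM in AXL KO hypoxia and 6.06, 5.69 and 6.24 CPM in AXL KO normoxia. It had 31.8, 94.5 and 58.6 CPM in AXL WT hypoxia and 3.40, 3.35 and 2.86 CPM in AXL WT normoxia. It rose in hypoxia by 2.47 ± 0.30 in AXL KO and 4.26 ± 0.32 in AXL WT cells (adjusted p = 3.29e-05 and 8.73e-07; 3.33 in AXL WT with replicates 2 and 3 left out). KO cells had less Hspa1b than WT cells in hypoxia (-1.50 ± 0.30, adjusted p = 0.00108; -0.46 with replicates 2 and 3 left out). For Hspa1a the same difference was -0.90 ± 0.28 (adjusted p = 0.0154), the libraries of the genotypes overlapped, and it was 0.052 with replicates 2 and 3 left out. It was also not called without AXL KO hypoxia replicate 2 (adjusted p = 0.0526) or AXL WT hypoxia replicate 2 (-0.45, adjusted p = 0.0661). In normoxia Hspa1a was higher in KO cells (0.90 ± 0.30, adjusted p = 0.0198), but not without AXL WT normoxia replicate 3 (adjusted p = 0.0597) or AXL KO normoxia replicate 3 (adjusted p = 0.0503), and Hspa1b differed by 0.15 ± 0.30, not called. The genes share 60.3% (Hspa1a) and 62.3% (Hspa1b) of their 50-base words with each other or another gene. Under the settings in the file headers fragments with several alignments were not counted, so the split between them is uncertain.

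The other HSP70 genes followed no single pattern. Hspa8, the constitutive cytosolic HSP70, had 608, 588 and 618 CPM in AXL KO hypoxia and 413, 429 and 437 CPM in AXL KO normoxia. It had 928, 1269 and 943 CPM in AXL WT hypoxia and 680.4, 823 and 661 CPM in AXL WT normoxia. It rose in hypoxia by 0.50 ± 0.13 and 0.54 ± 0.13 in AXL KO and AXL WT cells and was lower in KO cells, at -0.79 ± 0.13 in hypoxia and -0.76 ± 0.13 in normoxia, all called, and 38.6% of its 50-base words occur in other genes, among them pseudogenes. Hspa2, an HSP70 best known from the testis, had 38.1, 40.5 and 40.6 CPM in AXL KO hypoxia and 42.1, 38.9 and 39.2 CPM in AXL KO normoxia. It had 8.19, 11.9 and 9.74 CPM in AXL WT hypoxia and 4.18, 5.34 and 4.77 CPM in AXL WT normoxia. Every KO library lay above every WT library, by 3.99-fold of the means in hypoxia and 8.42-fold in normoxia (adjusted p = 3.74e-07 and 1.3e-08). In hypoxia Hspa2 changed by -0.01 ± 0.14 in AXL KO cells, not called, and rose by 1.06 ± 0.15 in AXL WT cells.

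Hspa9, the mitochondrial HSP70 mortalin, had 694, 644 and 651 CPM in AXL KO hypoxia and 1307, 1158 and 996 CPM in AXL KO normoxia. It had 1031, 1194 and 931 CPM in AXL WT hypoxia and 1213, 1198 and 1353 CPM in AXL WT normoxia. It fell in hypoxia in AXL KO cells (-0.80 ± 0.12, adjusted p = 0.000149), was -0.25 ± 0.12 in AXL WT cells, not called, and was lower in KO cells in hypoxia (-0.67 ± 0.12, adjusted p = 0.000447). Hspa13, a microsomal HSP70-like protein, had 114, 124 and 129 CPM in AXL KO hypoxia and 190.2, 156 and 153 CPM in AXL KO normoxia. It had 82.4, 124 and 97.6 CPM in AXL WT hypoxia and 69.7, 74.9 and 72.3 CPM in AXL WT normoxia. It was higher in KO cells in normoxia (1.20 ± 0.14, adjusted p = 1.66e-05), fell in hypoxia in AXL KO (-0.44 ± 0.14) and rose in AXL WT cells (0.49 ± 0.14; 0.20, not called, with replicates 2 and 3 left out). The fall was not called without AXL KO normoxia replicate 1 (adjusted p = 0.0796) or AXL KO hypoxia replicate 1 (adjusted p = 0.0755).

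Hspa14, a ribosome-associated HSP70, had 35.3, 33.2 and 35.3 CPM in AXL KO hypoxia and 27.6, 29.4 and 24.2 CPM in AXL KO normoxia. It had 53.9, 38.4 and 38.1 CPM in AXL WT hypoxia and 60.6, 63.7 and 68.1 CPM in AXL WT normoxia. Hspa14 was lower in KO cells in normoxia (-1.24 ± 0.14, adjusted p = 1.12e-05) and fell in hypoxia in AXL WT cells (-0.56 ± 0.14; -0.24, not called, with replicates 2 and 3 left out). Its rise in AXL KO cells (0.35 ± 0.14, adjusted p = 0.0449) was not called with any 1 of 9 libraries left out (adjusted p up to 0.163), and it overlaps Gm45902 on the same strand by 8264 bases, so its counts are uncertain.

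Low-level HSP70 genes were lower still in KO cells. Hspa1l, a testis-enriched HSP70, had 0.194, 0.314 and 0.264 CPM in AXL KO hypoxia and 0.107, 0.103 and 0.0347 CPM in AXL KO normoxia, against 0.287, 3.09 and 2.28 CPM in AXL WT hypoxia and 1.45, 1.49 and 1.10 CPM in AXL WT normoxia. Hspa1l was lower in KO cells, at -2.86 ± 0.67 in hypoxia and -4.00 ± 0.75 in normoxia, but -0.16 in hypoxia with replicates 2 and 3 left out, not called. Hspa12a, a distant HSP70 relative, had 0, 0.134 and 0.0660 CPM in AXL KO hypoxia and 0.0893, 0 and 0 CPM in AXL KO normoxia, against 1.72, 0.703 and 0.893 CPM in AXL WT hypoxia and 1.00, 1.14 and 1.20 CPM in AXL WT normoxia. Its KO libraries lay below every WT library (adjusted p = 0.000867 in hypoxia and 0.000224 in normoxia), with fitted differences of -3.97 ± 0.78 and -5.14 ± 0.84 that depend on very few counts and were -4.91 without AXL KO hypoxia replicate 2, -4.61 without AXL WT hypoxia replicates 2 and 3, and -8.81 without AXL KO normoxia replicate 1. Hspa12b was at 0.0558 CPM or less in every library and gives no comparison.

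HSP110 proteins, the exchange factors that let HSP70 release its client, rose together in hypoxia. All 3 were called higher in both genotypes, where 27.3% of all genes were higher in AXL KO and 29.2% in AXL WT cells. Hsph1 (HSP105, chr5:149614287-149636376, minus strand) had 992, 729.7 and 830.2 CPM in AXL KO hypoxia and 65.7, 56.7 and 52.7 CPM in AXL KO normoxia. It had 1573, 2560.0 and 1835 CPM in AXL WT hypoxia and 174, 178 and 171 CPM in AXL WT normoxia. The 4 groups did not overlap, with AXL WT hypoxia highest and AXL KO normoxia lowest. Hsph1 rose by 3.86 ± 0.19 in AXL KO (adjusted p = 6.87e-08) and 3.51 ± 0.19 in AXL WT cells (adjusted p = 7.6e-08; 3.18 with replicates 2 and 3 left out), or 14.6-fold and 11.4-fold of the means. It was lower in KO cells, at -1.23 ± 0.17 in hypoxia and -1.58 ± 0.17 in normoxia (adjusted p = 7e-05 and 8.59e-06). Its short stretch printed above holds a 3-unit motif after the start site.

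Hspa4l (APG-1, chr3:40744495-40796103) had 1685, 1508 and 1499 CPM in AXL KO hypoxia and 205, 197 and 210.0 CPM in AXL KO normoxia. It had 4149.8, 7798 and 6135 CPM in AXL WT hypoxia and 509, 472 and 491 CPM in AXL WT normoxia. The groups again did not overlap. It rose by 2.94 ± 0.18 in AXL KO and 3.62 ± 0.19 in AXL WT cells (adjusted p = 3.3e-07 and 7.57e-08; 3.09 in AXL WT with replicates 2 and 3 left out). KO cells had less of it in hypoxia (-1.95 ± 0.18) and in normoxia (-1.27 ± 0.17; adjusted p = 2.47e-06 and 5.73e-05). Hspa4 (APG-2), the third member, rose by 1.66 ± 0.19 in AXL KO and 1.58 ± 0.19 in AXL WT cells (adjusted p = 2.42e-05 and 2.94e-05; 0.97 in AXL WT with replicates 2 and 3 left out), and its differences between genotypes, -0.17 ± 0.19 in hypoxia and -0.25 ± 0.19 in normoxia, were not called. With replicates 2 and 3 left out the difference in hypoxia turned to 0.45 and was called higher in KO cells (adjusted p = 0.000228), and that in normoxia, -0.25, was called lower (adjusted p = 0.00123).

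**Figure D4:**
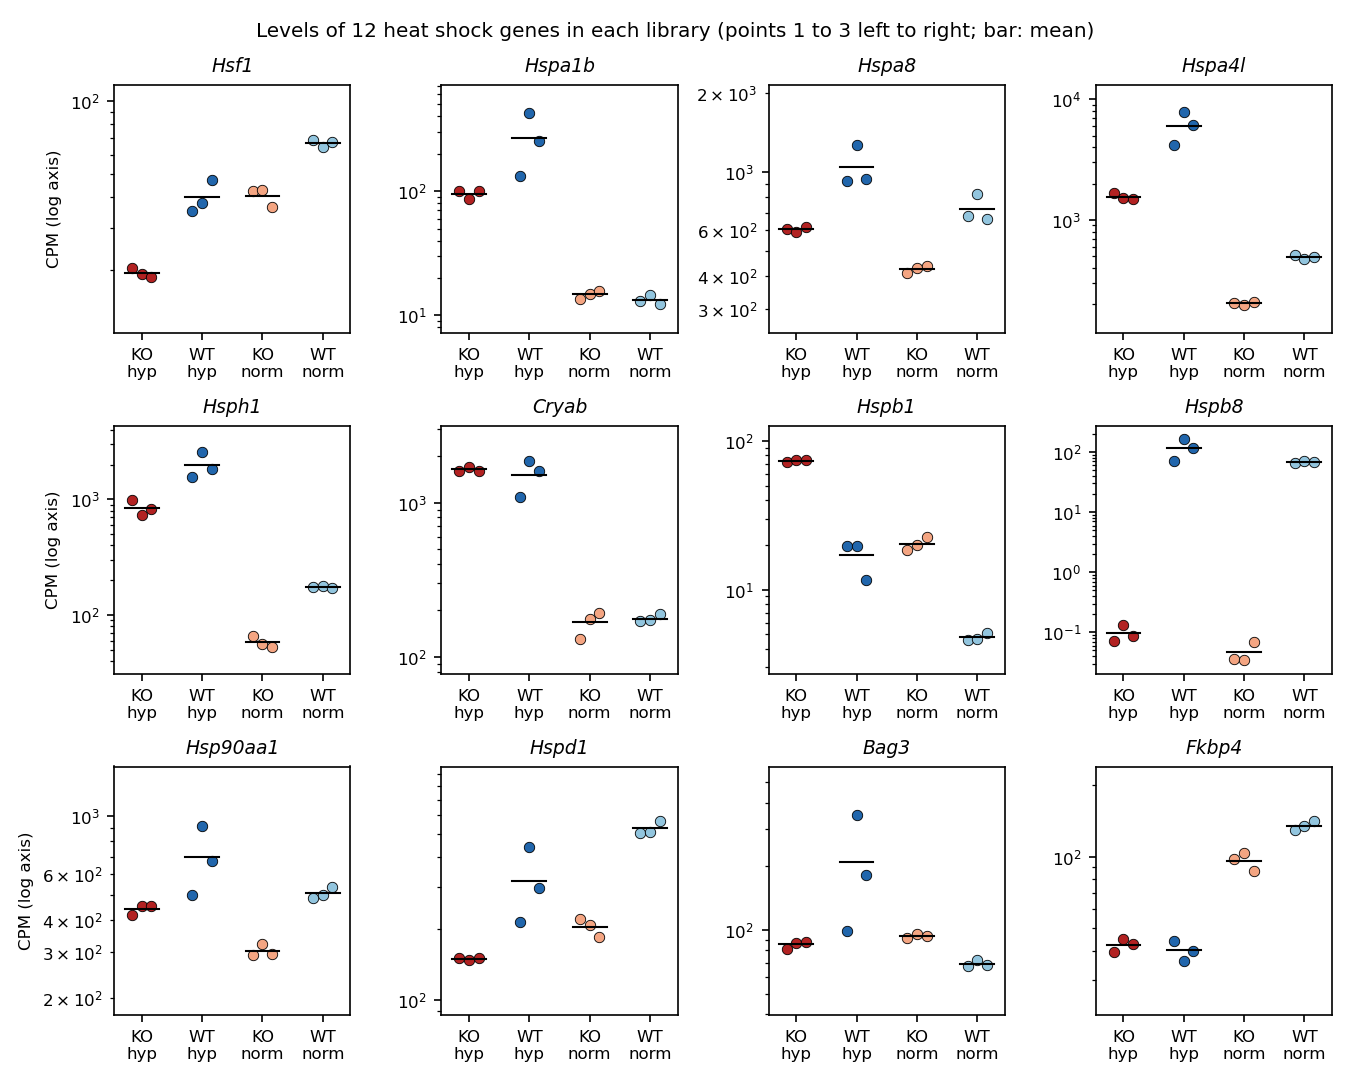
CPM of 12 members in each library on log axes, with AXL KO to the left of AXL WT in hypoxia (hyp) and then in normoxia (norm), points for replicates 1 to 3 from left to right, and a bar at the group mean. Hspb8 is at 0.134 CPM or less in both KO groups and between 65.4 and 163 CPM in both WT groups, while Hsph1, Hspa4l, Hspa1b and Cryab are high in both hypoxia groups.

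Small heat shock proteins held the largest differences between genotypes. Hspb8 (HSP22, chr5:116408491-116422864, minus strand), which works with BAG3 in the clearance of misfolded proteins, had 0.0728, 0.134 and 0.0880 CPM in AXL KO hypoxia and 0.0357, 0.0345 and 0.0694 CPM in AXL KO normoxia. It had 70.6, 163 and 116 CPM in AXL WT hypoxia and 65.4, 69.9 and 68.6 CPM in AXL WT normoxia. Every WT library was at 65.4 CPM or more and every KO library at 0.134 CPM or less. The difference was -10.16 ± 0.39 in hypoxia and -10.43 ± 0.41 in normoxia (adjusted p = 1.92e-09 and 2.02e-09), and -9.45 in hypoxia with replicates 2 and 3 left out. In AXL WT cells it rose in hypoxia by 0.78 ± 0.23 (adjusted p = 0.0116), but by 0.067, not called, with replicates 2 and 3 left out. Of the 8 nearest tested genes, 4 on each side, looked at after the Hspb8 values were seen, C330018A13Rik, annotated as antisense, was lower in KO cells in hypoxia (-3.82 ± 0.79) and normoxia (-4.45 ± 0.50). Of these 8 genes 6 were called in hypoxia and 5 in normoxia, in both directions, where 63.0% and 59.7% of all tested genes were called. The pseudogene Gstm2-ps1 was higher in KO cells (2.91 ± 0.40 and 1.36 ± 0.37), Taok3 (-0.39 ± 0.13 and -0.64 ± 0.13) and Pebp1 (-0.43 ± 0.10 and -0.34 ± 0.10) were lower, and Cit was higher in hypoxia (1.12 ± 0.20) and lower in normoxia (-1.65 ± 0.20). Suds3 was higher in hypoxia (0.42 ± 0.08), with 0.11 ± 0.08 in normoxia, not called, and neither Prkab1 (0.15 ± 0.18 and 0.35 ± 0.18) nor Gm13841 was called.

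Hspb1 (HSP25, the mouse HSP27) was higher in KO cells and in hypoxia. It had 71.7, 74.4 and 74.7 CPM in AXL KO hypoxia and 18.3, 20.0 and 22.5 CPM in AXL KO normoxia, against 19.6, 19.6 and 11.7 CPM in AXL WT hypoxia and 4.60, 4.65 and 5.12 CPM in AXL WT normoxia. Every KO library lay above every WT library at the same oxygen level. The difference was 2.12 ± 0.18 in hypoxia and 2.08 ± 0.18 in normoxia (adjusted p = 1.36e-06 and 1.43e-06), and the rise in hypoxia was 1.86 ± 0.18 in AXL KO and 1.82 ± 0.18 in AXL WT cells (adjusted p = 5.92e-06 and 6.63e-06). About 48.8% of its 50-base words occur in the pseudogene Hsp25-ps1, so its level may be undercounted. Hspb6 (HSP20) had 35.9, 42.5 and 41.1 CPM in AXL KO hypoxia and 38.7, 40.7 and 38.5 CPM in AXL KO normoxia, against 24.9, 23.8 and 28.1 CPM in AXL WT hypoxia and 17.7, 19.9 and 18.6 CPM in AXL WT normoxia. It too was higher in KO cells (0.64 ± 0.11 in hypoxia and 1.07 ± 0.11 in normoxia, adjusted p = 0.000298 and 4.37e-06), and in hypoxia it changed by 0.02 ± 0.11 in AXL KO cells, not called, and rose by 0.45 ± 0.11 in AXL WT cells.

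Cryab (alpha-B crystallin, chr9:50751325-50756636), a small heat shock protein abundant in lens and muscle, had 1595, 1707 and 1613 CPM in AXL KO hypoxia and 131, 176 and 193 CPM in AXL KO normoxia. It had 1092, 1859 and 1604 CPM in AXL WT hypoxia and 169.9, 172 and 188 CPM in AXL WT normoxia. The hypoxic libraries lay far above the normoxic ones, and the genotypes overlapped at both oxygen levels. Cryab rose by 3.30 ± 0.20 in AXL KO and 3.10 ± 0.19 in AXL WT cells (adjusted p = 2.23e-07 and 2.45e-07), or 9.82-fold and 8.60-fold of the means. Genotype differences of 0.11 ± 0.18 in hypoxia and -0.08 ± 0.18 in normoxia were not called, but with replicates 2 and 3 left out that in hypoxia was 0.58 (adjusted p = 0.0063). Hspb2, its divergent neighbour, rose by 2.58 ± 0.14 in AXL KO and 3.27 ± 0.14 in AXL WT cells. The genes overlap by 1030 bases on opposite strands. Counting was stranded, but how well it separates them was not tested. Cryab had 479701 counts over all libraries and Hspb2 had 23070, so the Hspb2 values are uncertain.

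Hspb7, the cardiovascular small heat shock protein, was close to the limit of detection. It had 0.121, 0.0672 and 0.0880 CPM in AXL KO hypoxia and no counts in AXL KO normoxia, against 3.25, 0.773 and 1.14 CPM in AXL WT hypoxia and 0.106, 0.112 and 0.262 CPM in AXL WT normoxia. With a floor of 3 counts over the group, it was at least 9.21-fold lower in AXL KO than in AXL WT normoxia, and at least 5.23-fold higher in AXL KO hypoxia than in AXL KO normoxia. Hspb7 was lower in KO cells in hypoxia (-4.20 ± 0.67, adjusted p = 0.000394; -3.35 without AXL WT hypoxia replicate 1 and -5.12 without replicates 2 and 3) and rose in AXL WT hypoxia (3.40 ± 0.61; 2.56 and 4.33 without the same libraries, and 3.99 without AXL WT normoxia replicate 3). Muscle expresses several of these small heat shock proteins. The 10 striated muscle markers summed to 85.9 to 88.0 CPM in AXL KO hypoxia and 58.4 to 66.2 CPM in AXL KO normoxia, against 64.7 to 145 CPM in AXL WT hypoxia and 303 to 313 CPM in AXL WT normoxia. Myod1, which is among these markers, had 0 counts in every group, and 8 or 9 of the 10 were under 1 CPM in each. The part of these markers in the small heat shock protein results was not tested.

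HSP90 genes moved little. Hsp90aa1, the stress-inducible HSP90, had 418, 452 and 453 CPM in AXL KO hypoxia and 292, 324 and 294 CPM in AXL KO normoxia. It had 498, 914 and 672 CPM in AXL WT hypoxia and 484, 498 and 534 CPM in AXL WT normoxia. KO cells had less of it in hypoxia (-0.65 ± 0.17, adjusted p = 0.00499; -0.18, not called, with replicates 2 and 3 left out) and in normoxia (-0.74 ± 0.17, adjusted p = 0.00248). The rise in hypoxia was 0.54 ± 0.17 in AXL KO (adjusted p = 0.0158; 0.0543 without AXL KO normoxia replicate 1). In AXL WT cells it was 0.46 ± 0.17 (adjusted p = 0.0329), with overlapping libraries, lost without any 1 of 4 WT libraries (normoxia 1 or 2, hypoxia 2 or 3; adjusted p up to 0.121) and -0.0092 with replicates 2 and 3 left out. Other genes share 47.5% of the 50-base words of Hsp90aa1, so its level may be undercounted. Hsp90ab1, the constitutive HSP90, had 1954, 1942 and 1997 CPM in AXL KO hypoxia and 2171, 2317 and 2262 CPM in AXL KO normoxia. It had 1824, 2446 and 2182 CPM in AXL WT hypoxia and 2544, 2759 and 2745 CPM in AXL WT normoxia. Differences were small. For hypoxia in AXL WT cells Hsp90ab1 changed by -0.32 ± 0.10 (adjusted p = 0.0175), and by -0.54 with replicates 2 and 3 left out. That fall was not called without AXL WT normoxia replicate 2 or 3 (adjusted p = 0.0922 and 0.0893). Between genotypes in normoxia the difference was -0.25 ± 0.10 (adjusted p = 0.0485). It was not called with any 1 of 10 libraries left out (adjusted p up to 0.21). For hypoxia in AXL KO cells -0.20 ± 0.10 was not called on all 12 libraries or in 11 of the 12 fits with 1 library left out. The libraries there did not overlap, and the value was -0.19 with AXL WT hypoxia replicates 2 and 3 left out. Between genotypes in hypoxia -0.13 ± 0.10 was not called (0.10, not called, with those replicates left out).

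The mitochondrial chaperonin HSP60 and its lid HSP10, encoded by the divergent pair Hspd1 and Hspe1, were lower in AXL WT hypoxia and in KO normoxia. Hspd1 had 151, 147 and 151 CPM in AXL KO hypoxia and 219.9, 208 and 184 CPM in AXL KO normoxia. It had 214, 441 and 297 CPM in AXL WT hypoxia and 507, 512 and 567 CPM in AXL WT normoxia. AXL WT normoxia was the highest group and AXL KO hypoxia the lowest. Hspd1 was lower in KO cells, at -1.08 ± 0.20 in hypoxia and -1.37 ± 0.20 in normoxia (adjusted p = 0.000536 and 8.84e-05; -0.52 in hypoxia with replicates 2 and 3 left out). It fell in hypoxia in AXL WT cells by 0.74 ± 0.20 (adjusted p = 0.00681; -1.29 with replicates 2 and 3 left out). In AXL KO cells -0.44 ± 0.20 was not called on all 12 libraries or in 10 of the 12 fits with 1 library left out. Every hypoxia library there lay below every normoxia library. The value was again -0.44 with AXL WT hypoxia replicates 2 and 3 left out. Hspe1 had 40.9, 41.9 and 43.3 CPM in AXL KO hypoxia and 47.8, 49.7 and 44.3 CPM in AXL KO normoxia. It had 44.3, 55.4 and 45.4 CPM in AXL WT hypoxia and 88.3, 87.7 and 96.1 CPM in AXL WT normoxia. AXL WT normoxia was far above the other groups. Hspe1 fell in AXL WT hypoxia by 0.91 ± 0.10 (adjusted p = 1.87e-05) and was lower in KO normoxia, at -0.94 ± 0.10 (adjusted p = 9.22e-06), while -0.17 ± 0.10 in AXL KO hypoxia and -0.20 ± 0.10 between genotypes in hypoxia were not called. Other genes, pseudogenes among them, share 39.7% of the 50-base words of Hspd1 and 18.4% of those of Hspe1.

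J-domain co-chaperones, which deliver clients to HSP70 and start its ATP cycle, went both ways in hypoxia. In AXL KO cells 2 of 8 rose and 1 fell, where 27.3% of all genes were higher and 30.6% lower. In AXL WT cells 3 rose and 2 fell, where 29.2% of all genes were higher and 30.7% lower. Dnajb6, a suppressor of protein aggregation, had 241, 205 and 219 CPM in AXL KO hypoxia and 48.9, 51.1 and 52.9 CPM in AXL KO normoxia. It had 193, 217 and 173 CPM in AXL WT hypoxia and 64.5, 68.8 and 68.8 CPM in AXL WT normoxia. All hypoxic libraries lay far above the normoxic ones. It rose by 2.12 ± 0.10 in AXL KO and 1.53 ± 0.10 in AXL WT cells (adjusted p = 6.87e-08 and 3.62e-07; 1.53 in AXL WT with replicates 2 and 3 left out) and was lower in KO cells in normoxia (-0.40 ± 0.10). Its promoter stretch printed above holds a 3-unit motif, marked in capitals. Dnajb1 (HSP40), the main heat-inducible J protein, had 67.2, 71.0 and 72.9 CPM in AXL KO hypoxia and 49.8, 53.5 and 53.0 CPM in AXL KO normoxia. It had 126, 203 and 148 CPM in AXL WT hypoxia and 72.9, 81.7 and 74.0 CPM in AXL WT normoxia. KO cells had less of it in hypoxia (-1.18 ± 0.15, adjusted p = 2.89e-05) and normoxia (-0.55 ± 0.14, adjusted p = 0.006). It rose in hypoxia by 0.43 ± 0.14 in AXL KO cells (adjusted p = 0.0222; not called without any 1 of 5 libraries, adjusted p up to 0.0753) and 1.06 ± 0.15 in AXL WT cells (adjusted p = 7.23e-05).

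Dnaja1, a farnesylated J protein of the cytosol, had 41.4, 43.0 and 44.1 CPM in AXL KO hypoxia and 67.9, 70.7 and 59.2 CPM in AXL KO normoxia. It had 98.2, 295 and 170.3 CPM in AXL WT hypoxia and 119.7, 129.8 and 125 CPM in AXL WT normoxia. Every KO library lay below every WT library, at -2.13 ± 0.29 in hypoxia (adjusted p = 6.04e-05; -1.20 with replicates 2 and 3 left out) and -0.92 ± 0.28 in normoxia (adjusted p = 0.0136; 0.0537 without AXL KO normoxia replicate 3). Dnaja4, a relative of Dnaja1, had 99.9, 88.3 and 88.9 CPM in AXL KO hypoxia and 107, 89.2 and 86.7 CPM in AXL KO normoxia. It had 71.7, 33.6 and 41.4 CPM in AXL WT hypoxia and 58.0, 56.0 and 61.9 CPM in AXL WT normoxia. It was higher in KO cells in hypoxia (0.92 ± 0.22, adjusted p = 0.00326; 0.36 with replicates 2 and 3 left out) and in normoxia (0.69 ± 0.22, adjusted p = 0.0172; 0.0667 without AXL KO normoxia replicate 1). Dnajb5, an HSP40 relative, had 4.27, 4.57 and 4.16 CPM in AXL KO hypoxia and 10.7, 10.7 and 9.95 CPM in AXL KO normoxia. It had 9.78, 4.34 and 8.35 CPM in AXL WT hypoxia and 13.9, 14.5 and 13.4 CPM in AXL WT normoxia. It fell in hypoxia by 1.27 ± 0.24 in AXL KO and 0.89 ± 0.23 in AXL WT cells (adjusted p = 0.000696 and 0.00566; -0.49 in AXL WT with replicates 2 and 3 left out), and KO cells had less of it in hypoxia (-0.79 ± 0.23), with overlapping libraries. Dnaja2, Dnajb2 and Dnajb4 had group means between 47.3 and 252 CPM. Dnajb4 rose in AXL WT hypoxia (1.20 ± 0.27; 0.43 with replicates 2 and 3 left out), Dnaja2 was lower in KO normoxia (-0.70 ± 0.10), and Dnajb2 was called in no contrast. KO cells had less Dnajb4 in hypoxia (-0.99 ± 0.27; -0.21, not called, with replicates 2 and 3 left out). The fall of Dnaja2 in AXL WT hypoxia (-0.29 ± 0.10) was not called with those replicates left out (-0.091) or without any 1 of 5 libraries (adjusted p up to 0.147).

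Bag3, the exchange factor that pairs HSP70 with small heat shock proteins in selective autophagy, rose in hypoxia in AXL WT cells. It had 81.4, 86.6 and 88.0 CPM in AXL KO hypoxia and 91.9, 95.4 and 93.9 CPM in AXL KO normoxia. In WT cells Bag3 had 99.1, 349 and 182 CPM in hypoxia and 67.3, 71.9 and 68.4 CPM in normoxia. The KO libraries spanned 81.4 to 95.4 CPM, while AXL WT hypoxia alone spanned 99.1 to 349 CPM. Hypoxia changed it by -0.14 ± 0.31 in AXL KO (not called), while the means of AXL WT hypoxia and normoxia differed 3.03-fold (adjusted p = 0.00108; log2 fold change 0.53, adjusted p = 1.67e-05, with replicates 2 and 3 left out). It was lower in KO hypoxia (-1.30 ± 0.32, adjusted p = 0.00365), at -0.22 with replicates 2 and 3 left out. In normoxia the difference was 0.44 ± 0.31, and 0.44 also with those replicates left out. It was not called on all 12 libraries or in 10 of the 12 fits with 1 library left out.

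HSP90 co-chaperones were lower in KO cells in normoxia, where all 4 were called and 30.0% of all genes were lower. Ahsa1 was not called without AXL WT normoxia replicate 3 (-0.28, adjusted p = 0.0602). Fkbp4 (FKBP52), an immunophilin of steroid receptor complexes, had 39.5, 44.8 and 42.8 CPM in AXL KO hypoxia and 97.5, 104 and 86.9 CPM in AXL KO normoxia. It had 43.9, 36.3 and 39.9 CPM in AXL WT hypoxia and 129, 135 and 141 CPM in AXL WT normoxia. The hypoxic libraries of the genotypes overlapped, well below all normoxic libraries. Fkbp4 fell in hypoxia by 1.18 ± 0.10 in AXL KO and 1.75 ± 0.11 in AXL WT cells (adjusted p = 3.31e-06 and 1.81e-07). Chordc1 (morgana), an HSP90 partner, had 39.3, 40.9 and 44.2 CPM in AXL KO hypoxia and 69.2, 66.1 and 58.6 CPM in AXL KO normoxia. It had 51.0, 72.7 and 72.4 CPM in AXL WT hypoxia and 79.9, 85.3 and 83.8 CPM in AXL WT normoxia. It was lower in KO hypoxia (-0.66 ± 0.13; -0.31 with replicates 2 and 3 left out), fell in hypoxia in AXL KO cells by 0.64 ± 0.13 (adjusted p = 0.00146), and its stretch printed above holds 3-unit motifs that overlap. Its fall in AXL WT cells (0.34 ± 0.13, adjusted p = 0.0402; log2 fold change -0.69 with replicates 2 and 3 left out) and its KO difference in normoxia (-0.36 ± 0.13, adjusted p = 0.033) were not called with any 1 of 7 or 5 libraries left out (adjusted p up to 0.142 and 0.129).

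Ahsa1 (AHA1), which stimulates the ATPase of HSP90, had 54.8, 55.9 and 54.7 CPM in AXL KO hypoxia and 60.4, 62.6 and 54.7 CPM in AXL KO normoxia. It had 43.4, 52.9 and 50.2 CPM in AXL WT hypoxia and 71.1, 77.2 and 81.4 CPM in AXL WT normoxia. In hypoxia it changed by -0.10 ± 0.10 in AXL KO cells, not called, and fell by 0.65 ± 0.10 in AXL WT cells (adjusted p = 0.000182). Stip1 (HOP), which bridges HSP70 and HSP90, averaged 186 ± 2.97 and 151 ± 14.1 CPM in AXL KO hypoxia and normoxia, against 579 ± 129 and 371 ± 19.6 CPM in AXL WT hypoxia and normoxia (SD, n = 3 each). Every KO library lay below every WT library, at -1.64 ± 0.14 in hypoxia and -1.29 ± 0.14 in normoxia (adjusted p = 1.3e-06 and 6.9e-06), and hypoxia raised it in AXL WT cells (0.65 ± 0.14; 0.39 with replicates 2 and 3 left out).

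The hypoxia response itself was compared between genotypes with the interaction term, the log2 response in AXL KO minus that in AXL WT cells. It was called for 14 of 36 members, 6 higher and 8 lower (38.9%), where 28.8% of all genes were called, 13.5% higher and 15.3% lower. Hspa1a (-1.80 ± 0.41), Bag3 (-1.74 ± 0.44) and Hspa1b (-1.65 ± 0.43) had lower values in KO cells, with adjusted p of 0.00731, 0.013 and 0.0139. With replicates 2 and 3 of AXL WT hypoxia left out these values were -0.85, -0.66 and -0.61, all still called. Dnajb6 rose more in KO cells (0.59 ± 0.14, adjusted p = 0.00917) and Fkbp4 fell less (0.57 ± 0.15, adjusted p = 0.0123; 0.0528 and 0.0644 without AXL WT normoxia replicate 2 or 3). Of the genes that rose most in both genotypes, Hsph1 (0.35 ± 0.24), Cryab (0.19 ± 0.25) and Hspa4l (-0.68 ± 0.24, adjusted p = 0.0551) did not pass the test of a difference, but with replicates 2 and 3 left out Hsph1 (0.68, adjusted p = 0.00624) and Cryab (0.66, adjusted p = 0.0151) did. In the same fit Dnaja1 (-1.21 ± 0.40) was at -0.29 and Dnaja2 (0.47 ± 0.14) at 0.28, neither called, and 12 members were higher and 10 lower by the interaction. Hspa4 (0.08 ± 0.27) and Hsp90aa1 (0.08 ± 0.24), not called on all libraries, were at 0.69 and 0.55 with AXL WT hypoxia replicates 2 and 3 left out. The count of 6 higher became 3 without AXL WT normoxia replicate 2 or 3. The count of 8 lower became 14 without AXL WT hypoxia replicate 1 and 5 without AXL KO normoxia replicate 1 or 2 or any 1 AXL KO hypoxia replicate.

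**Figure D5:**
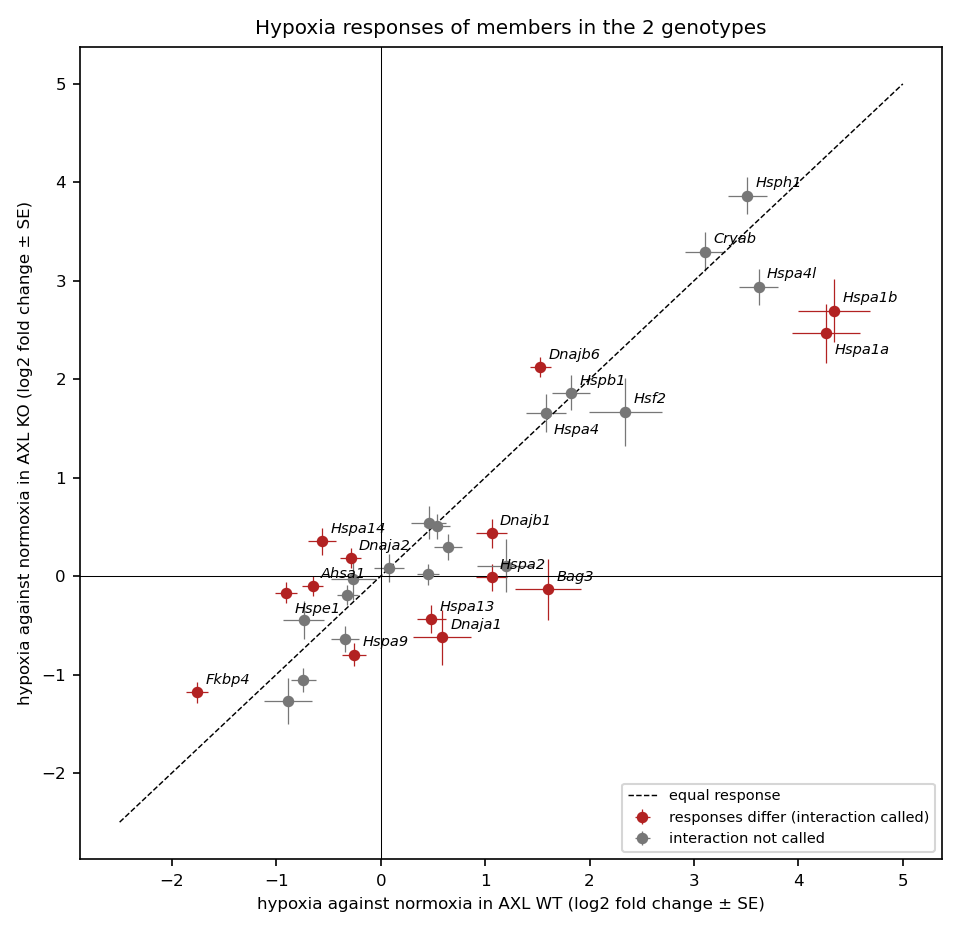
Log2 fold change of hypoxia against normoxia in AXL KO cells (vertical) against that in AXL WT cells (horizontal), each ± SE, for 32 members with a group mean of at least 5 CPM, without Hspb8. Red points are the 14 members whose responses differed by the interaction test, and the dashed line marks equal responses, below which lie Hspa1a, Hspa1b and Bag3.

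Set against the promoter motifs, the direction in hypoxia was mixed. Of 10 members with a window that were called higher in both genotypes 5 held a GAANNTTC or TTCNNGAA (Dnajb6, Hspa1a, Hspa1b, Hspb1 and Hsph1), as did 2 of 3 called lower in both (Chordc1 and Fkbp4) and 8 of the other 17. The 3-unit genes included Hsph1 and Dnajb6, which rose, Chordc1, which fell, and Hspd1 and Hspe1, which were lower in AXL WT hypoxia. ACGTG was found in 5 of the 10 higher in both (Dnajb1, Dnajb6, Hsf2, Hspa4 and Hsph1), in 0 of 3 lower in both and in 6 of the other 17. These counts describe 30 members and were not tested.

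Genes of related machinery, listed with results of these data known, put the members in context. Of all tested genes 33.0% were lower and 29.9% higher in KO hypoxia, 30.0% lower and 29.7% higher in KO normoxia, 27.3% higher and 30.6% lower for hypoxia in AXL KO, and 29.2% higher and 30.7% lower for hypoxia in AXL WT cells. Proteasome subunits, which degrade proteins that chaperones cannot refold, were mostly lower in KO cells: 25 of 31 were lower and 3 higher in hypoxia and 23 lower and 1 higher in normoxia, with median log2 fold changes of -0.64 and -0.54, against -0.04 and -0.03 over all genes. In hypoxia 6 rose and 10 fell in AXL KO, and 5 rose and 7 fell in AXL WT cells. TRiC and prefoldin, the cytosolic chaperonin and its partner, had 9 of 14 lower and 3 higher in KO hypoxia and 11 lower and 1 higher in KO normoxia. Cct3 was lower in KO hypoxia (-1.69 ± 0.14) and Cct6a in KO normoxia (-1.18 ± 0.10), while Pfdn5 was higher in KO hypoxia (0.88 ± 0.08). Hypoxia raised 3 and lowered 3 of these 14 in AXL KO, and raised 3 and lowered 6 in AXL WT cells, where Pfdn2 rose by 1.55 ± 0.17.

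Of 19 other J-domain proteins outside the ER, 8 were lower and 2 higher in KO hypoxia and 9 lower and 3 higher in KO normoxia. Dnajc21, a ribosome biogenesis factor, rose in hypoxia in both genotypes (1.16 ± 0.13 in AXL KO and 1.41 ± 0.13 in AXL WT), among 5 higher and 7 lower in AXL KO and 6 higher and 8 lower in AXL WT cells. Of 27 other partners of HSP70 and HSP90, 11 were lower and 6 higher in KO hypoxia and 12 lower and 5 higher in KO normoxia, shares not far from those of all genes. Ppid, the cyclophilin 40 gene, was lower in KO cells in both (-1.35 ± 0.13 in hypoxia and -1.39 ± 0.12 in normoxia). Trap1, the mitochondrial HSP90, fell in hypoxia by 0.96 ± 0.10 in AXL KO and 1.15 ± 0.10 in AXL WT cells, among 7 of 27 lower in AXL KO and 8 of 27 lower in AXL WT cells, with 8 higher in each. Hikeshi, which carries HSP70 into the nucleus, rose in both (1.44 ± 0.22 in AXL KO and 1.83 ± 0.22 in AXL WT), one of 5 tested among 9 other heat shock factors and small heat shock proteins, of which 2 rose and 1 fell in AXL KO and 3 rose and 2 fell in AXL WT cells.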

How the data were processed

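RNA-seq libraries of 12 samples (4 groups of 3) were used. The deposited values are whole-number read counts per gene, 1 file a sample; per the file headers the authors counted them with featureCounts 1.6.0 on Ensembl release 93, with strand setting 2 and paired fragments. Per the submitters' processing notes the tools were FastQC 0.11.5, STAR 2.5.1b, featureCounts 1.4.6 and DESeq2 1.12.3, and the build GRCm38; the notes and headers differ in the featureCounts version. Groups came from the titles, since the genotype tag went against the title in 6 samples.

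Counts of 54232 genes were filtered with filterByExpr (16767 kept), scaled by TMM and tested in R 4.3.3 with edgeR 4.0.16's quasi-likelihood test, all 12 libraries in 1 fit (8 residual degrees of freedom) and p-values adjusted by Benjamini-Hochberg over all tested genes. The SE of a log2 fold change is its size over the square root of F. CPM are TMM-scaled; CPM per kb divide by the annotated length. The script was tested on simulated data. Alternatives were DESeq2 1.42.0, limma 3.58.1 (voom with group weights), other scalings and filters, a replicate block and left-out libraries. Members, lists and tests were chosen with earlier results of these data known. Values per library are given for Axl, 10 fixed members and, in each contrast, up to 5 members a direction with the largest called change at 1 CPM or more; Hsf2 and Stip1 and the Hspb8 neighbours were added after their values were seen. Bounds from 3 counts cover counting error only. A marker gene among the lists is not reported here.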

Additional observations from a re-analysis of the deposited data

Results flagged for a closer look

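Responses to hypoxia that differed between AXL KO and AXL WT cells by the interaction test (log2 response in AXL KO minus that in AXL WT) are the results a reader may wish to look at again. Among the HSP70 genes the values were -1.80 for Hspa1a, -1.65 for Hspa1b, -1.07 for Hspa2, -0.92 for Hspa13, -0.54 for Hspa9 and 0.92 for Hspa14. Hspe1 had 0.74. Among the J-domain genes the values were -1.21 for Dnaja1, -0.63 for Dnajb1, 0.47 for Dnaja2 and 0.59 for Dnajb6. Bag3 had -1.74, and the HSP90 co-chaperones Ahsa1 and Fkbp4 had 0.55 and 0.57. All 14 had an adjusted p under 0.05. With 1 library left out in turn, Dnaja1 lost its call in 10 of 12 fits, Dnajb1 in 8, Dnaja2 in 7, Hspa9 in 5 and Ahsa1 and Fkbp4 in 2 each.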

How the results depend on the processing

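Of 1877 alternative values over 90 single-gene results, 1769 kept direction and side of the threshold, 68 lost and 31 gained a call, and 9 changed sign; the cause was not tested. Without AXL WT hypoxia replicates 2 and 3, 8 members were higher in KO hypoxia, 10 lower in AXL KO hypoxia and 12 higher by the interaction. Members lower in AXL KO hypoxia were 11 by library size alone, 10 by voom and 10 with the compared libraries only, where 5 were lower in AXL WT hypoxia. With 1 library left out, members higher and lower ranged over 4 to 6 and 20 to 24 between genotypes in hypoxia, 5 to 7 and 18 to 23 in normoxia, 12 to 17 and 5 to 9 for hypoxia in AXL KO, 19 to 22 and 7 to 10 in AXL WT, and 3 to 8 and 5 to 14 by the interaction. Sign changed between genotypes in hypoxia for Hspa1a (0.052) and Hsp90ab1 (0.10) without replicates 2 and 3, in normoxia for Hspa1b (-0.11, library size alone), and for hypoxia in AXL WT for Hsp90aa1 (-0.0092, without replicates 2 and 3). The interaction changed sign for Hspa8 (0.066 by library size alone, 0.13 without replicates 2 and 3, 0.12 without AXL WT hypoxia replicate 2; -0.21 to 0.12 with 1 library left out). It also did for Hsp90aa1 (-0.037 without AXL WT normoxia replicate 3, -0.10 without AXL WT hypoxia replicate 1; up to 0.32 with 1 library left out, and 0.55 without AXL WT hypoxia replicates 2 and 3). Hspa1a and Hspa1b summed gave 0.33 between genotypes in normoxia (adjusted p = 0.359).

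Same-numbered libraries did not deviate together (r from -0.0645 to 0.142, 2 of 18 pairs over 0.1; 12 of 36 comparisons were best with the own number), so the replicate numbers are not read as pairs. With a replicate block the counts were 4 higher and 21 lower, 6 and 21, 20 and 10, 13 and 6, and 6 and 8, and all 90 single-gene results kept direction and side of the threshold.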
